A study of Mus musculus with 29 samples.

Results

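Neuroblastomas of TH-MYCN mice differ in how much macrophage transcript they contain, and the tumours richest in it were compared here with the tumours poorest in it. Each of the 24 primary abdominal tumours was given a macrophage score, the mean log2 signal of Csf1r, Cd68, Adgre1, C1qa, C1qb and Cd14, and the tumours were chosen by these values: the 8 of highest score were set against the 8 of lowest score. These are 16 of the 29 samples, and 8 tumours of middle score and 5 bone marrow samples served only for reference. All animals carried the TH-MYCN transgene, in which a tyrosine hydroxylase promoter drives MYCN in cells of the sympathetic lineage, and were labelled as strain 129X1/SvJ. They were either wild type for caspase-8 (7 tumours) or deficient for it (17 tumours). The macrophage-rich tumours comprised 2 wild type and 6 deficient ones, and the macrophage-poor tumours 3 and 5. The labels name no age, treatment, deleted part of Casp8 or cell type of deletion. Nothing in them ties each tumour to a separate animal. The p-values therefore speak of the spread among the tumours each test used, 24 or fewer, part of which may be technical.

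Macrophages are phagocytes of the myeloid lineage. They depend on the growth factors Csf1 and Il34, which act through the receptor Csf1r, and on the transcription factor PU.1, the product of Spi1. They engulf dying cells and debris, degrade them in lysosomes with cathepsins, make the complement protein C1q and present peptides to T cells on MHC class II molecules. In solid tumours, neuroblastoma among them, they form a common part of the stroma.

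The score was read from the same arrays as every other gene, so its values describe the choice of tumours and support nothing. In the macrophage-rich group it was 9.44 in wild type tumour 1, 8.60 in deficient tumour 14, 8.55 in deficient tumour 10, 8.52 in wild type tumour 5, 8.36 in deficient tumour 13, 8.34 in deficient tumours 16 and 12, and 8.25 in deficient tumour 1. In the macrophage-poor group it was 7.71 in wild type tumour 2, 7.65 in deficient tumour 17, 7.63 in wild type tumour 3 and deficient tumour 11, 7.62 in wild type tumour 7, 7.59 in deficient tumour 15, 7.53 in deficient tumour 6 and 6.93 in deficient tumour 9. Wild type tumour 1 and deficient tumour 9 thus stood apart at the ends, and most other tumours formed a continuous range. The tumours just outside the groups, deficient tumour 3 at 8.24 and deficient tumour 5 at 7.81, lay close to the last ones inside. The mean score differed by 1.01 between the groups, and marrow samples scored from 8.67 to 8.97.

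**Figure D1:**
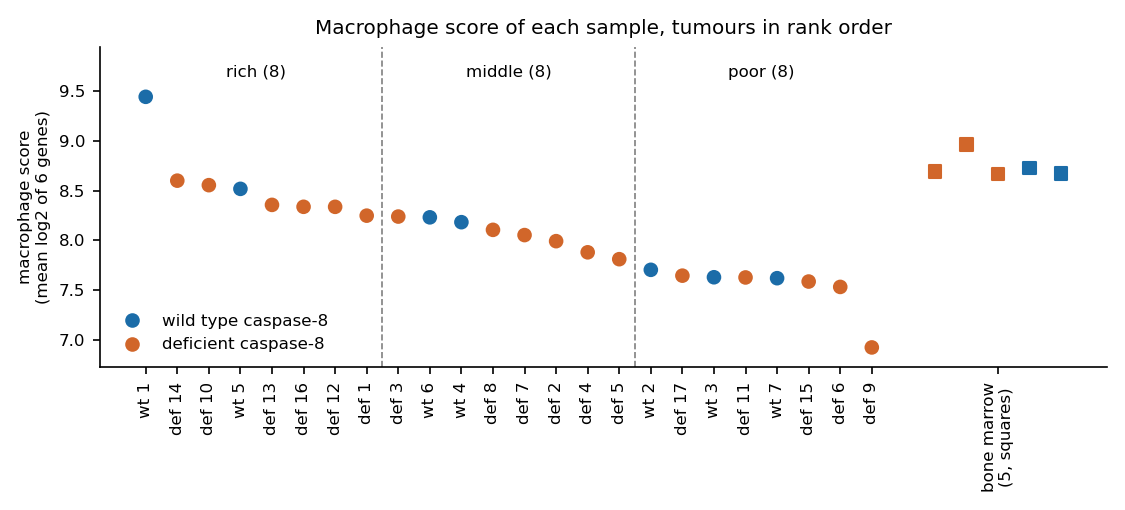
Macrophage score, in mean log2 signal of 6 genes, of each tumour in rank order (circles) and of the 5 bone marrow samples (squares), coloured by caspase-8 genotype. Dashed lines bound the 8 macrophage-rich and the 8 macrophage-poor tumours, and wild type tumour 1 (9.44) and deficient tumour 9 (6.93) stand apart from their groups.

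The scoring genes did not move equally. C1qa, which encodes a chain of C1q, ranged from 9.604 to 10.58 (median 9.82) in macrophage-rich and from 8.49 to 9.14 (median 8.99) in macrophage-poor tumours. Cd14, which encodes a co-receptor for lipopolysaccharide, ranged from 4.92 to 6.93 (median 5.80) and from 4.47 to 5.87 (median 4.78), so that its groups overlapped. Over the 24 tumours Cd14 had a Pearson correlation of 0.38 with the mean of the other 5 genes, against 0.79 (Adgre1) to 0.97 (C1qb) for the rest. Both C1q chains were lower in marrow than in macrophage-rich tumours (C1qa 7.44 to 8.59), whereas Cd14 was higher there (8.21 to 9.40). Macrophage markers that the score did not use describe the same cells. Of these, Aif1, an actin-binding protein of macrophages, was higher in macrophage-rich tumours by 1.02, Tyrobp, the adaptor DAP12, by 1.19 and Mpeg1, a pore-forming protein, by 0.99. Lyz2, which encodes lysozyme, differed by 0.67 (limma adjusted p = 0.0849).

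The score was then compared over what the labels give. Caspase-8 deficient tumours scored 7.99 ± 0.43 (SD, n = 17) and wild type tumours 8.19 ± 0.65 (SD, n = 7), a difference of -0.20 (two-sided exact permutation p = 0.389) that was 0.0091 without wild type tumour 1. Title numbers form 2 runs, called the lower and the higher title series here, and no label names a batch. The higher series scored 8.05 ± 0.49 (SD, n = 14) and the lower 8.05 ± 0.54 (SD, n = 10), a difference of -0.0084 (two-sided exact permutation p = 0.969) that turned positive in 8 of the 24 fits without 1 tumour and was 0.15 without wild type tumour 1. Fisher's exact test of the make-up of both groups gave p = 1 for genotype and for the title series. RNA quality, read as the 3' minus 5' signal of the control probe sets, was 0.726 ± 0.248 (SD, n = 8) in macrophage-rich and 0.730 ± 0.171 (SD, n = 8) in macrophage-poor tumours (two-sided exact permutation p = 0.971).

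The main comparison asked which other genes differ between macrophage-rich and macrophage-poor tumours. Genes of antigen presentation, myeloid identity and lysosomes were higher in the macrophage-rich tumours, and a smaller set that includes neuronal and muscle genes was lower. Of 18187 genes tested with limma, 316 (1.74%) passed an adjusted p of 0.05 with a higher and 62 (0.341%) with a lower mean, and 93 and 3 of these differed at least 2-fold. The 8 macrophage-rich values lay all above the 8 macrophage-poor ones for 156 genes (0.858%) and all below for 6 (0.033%). These p-values are for association with a score taken from the same tumours, in which fewer cells of a type and less RNA per cell cannot be told apart. The median difference over all genes was 0.0019. The 8 middle tumours were not in the comparison, but the score itself placed them between the groups. Their median lay between those of both groups for 294 of the 316 and 59 of the 62. The same count over all genes was not made. Genes called for a difference between the ends are likely to have such a median, so both counts are a description. Within the 8 middle tumours alone, 247 of the 316 rose with the score in sign, against 54.5% of all genes. Of the 62, 32 fell in sign. A limma slope on the score called 0 genes there (609 with an unadjusted p under 0.05).

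The counts moved with single tumours and with the scaling. Between 163 genes (deficient tumour 9 left out) and 426 genes (wild type tumour 5 left out) were called higher, and the count was over 1.5 times lower also without wild type tumour 2 (180), 3 (188) or 7 (185) or deficient tumour 6 (208). The share called lower was 0.0935% (17 genes) without wild type tumour 2 and 0.649% without deficient tumour 11. The count was 18 without deficient tumour 9, 22 without deficient tumour 6, 29 to 39 without wild type tumour 1, 3 or 7 or deficient tumour 10, 12, 13, 14 or 16, and 61 to 85 in the other fits. Of the 378 genes called, 83.6% were higher. After centring each array on its median, which shifts the median of all genes by -0.058, the split was 220 higher and 148 lower. Quantile scaling over the 24 tumours gave 82 higher and 10 lower, and 82 of the 316 and 4 of the 62 were still called. The score was computed anew under each scaling, and deficient tumour 1 then left the macrophage-rich group for wild type tumour 4 (centring) or 6 (quantile scaling). Of the 78 genes followed by name that passed, 32 passed with quantile scaling and 67 with centring.

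Antigen presentation by MHC class II held some of the largest differences. Of 10 genes measured, 4 passed, all of them higher, against 1.74% of all genes, and the list median was 0.73. H2-Aa, the alpha chain of the I-A molecule, ranged from 8.09 to 11.29 (median 8.74) in macrophage-rich and from 5.10 to 7.83 (median 7.18) in macrophage-poor tumours. Its groups did not overlap, and the difference was 2.08 (SE 0.44, 4.22-fold, limma adjusted p = 0.0226), a call that was lost without deficient tumour 9. The beta chain H2-Ab1 ranged from 7.02 to 10.40 (median 7.59) against 4.85 to 6.87 (median 6.45), a difference of 1.74 (SE 0.42, limma adjusted p = 0.0419) that passed in 5 of the 16 fits without 1 tumour. H2-Eb1, the I-E beta chain, was higher by 1.76 and the invariant chain Cd74 by 1.53, and the call of Cd74 was lost without wild type tumour 2 or 7 or deficient tumour 9. H2-Eb1 lost it without wild type tumours 1, 2 or 7 or deficient tumours 9 or 13. The list count was 0 without deficient tumour 9 and at most 5 in the other fits, and it was over 1.5 times lower also without wild type tumours 1, 2 or 7 or deficient tumour 13. With centring 1 of the 10 passed, and with quantile scaling 0 (7 with an unadjusted p under 0.05 in limma). Over all genes centring called 1.21% and quantile scaling 0.451% higher, the shares to set beside this and the later list counts. The list mean was 7.11 in wild type tumour 5 and 6.32 in wild type tumour 1, against 5.37 to 5.95 in the other macrophage-rich tumours and 4.46 to 5.25 in the macrophage-poor ones. Without these 2 wild type tumours, a choice made after the data were seen, 5 passed and the list median was 0.41. Deficient tumour 17 held the lowest H2-Aa and H2-Ab1 values of the macrophage-poor group, and some middle tumours reached the macrophage-rich range, up to 9.04 for H2-Aa.

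MHC class I genes, which present peptides of a cell's own proteins, were higher in 6 of 15 measured genes, against 1.74% of all genes. The list median was 0.96, and no member was lower in mean. H2-D1 ranged from 9.65 to 11.94 (median 10.16) in macrophage-rich and from 8.20 to 9.08 (median 8.998) in macrophage-poor tumours. H2-K1 ranged from 9.45 to 11.80 (median 9.96) against 7.999 to 9.01 (median 8.84). Neither gene's groups overlapped. The differences were 1.503 (SE 0.26, limma adjusted p = 0.0108) and 1.48 (SE 0.27, limma adjusted p = 0.0109), and both passed in all 16 fits without 1 tumour. The list mean stood apart in wild type tumour 5, at 9.14, and wild type tumour 1, at 8.49, against 7.45 to 7.85 in the other 6 macrophage-rich and 6.79 to 7.21 in the macrophage-poor tumours. Without these 2 wild type tumours 9 of the 15 passed and the list median was 0.62, with H2-D1 at 1.13 and H2-K1 at 1.11. With quantile scaling 2 of the 15 passed, H2-D1 and H2-K1. B2m, the light chain of class I molecules, was higher by 1.29, Erap1, a peptide-trimming aminopeptidase, by 0.99 and Tapbp, the peptide-loading factor tapasin, by 0.96. Class I heavy chains are close relatives, and a probe set of one may also bind another's transcript.

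Genes of macrophage identity, chosen to mark the same cells as the score, were higher as a rule. Among 37 surface and identity genes 17 passed, against 1.74% of all genes, 36 had a higher mean, and the median was 0.84. Ms4a6b, a membrane protein of the Ms4a family, ranged from 6.13 to 8.08 (median 6.79) against 4.81 to 6.26 (median 5.41), a difference of 1.39. Clec4n, the fungal receptor dectin-2, was higher by 1.02 and Cd84, a homophilic receptor of the SLAM family, by 0.85. The mannose receptor Mrc1 was higher by 1.37, and the receptor kinases Axl and Mertk, which bind bridging proteins on dying cells, by 1.04 and 0.79. Ptprc, the pan-leukocyte antigen Cd45, was at 8.03 to 11.10 (median 8.90) against 6.44 to 8.76 (median 7.30), a difference of 1.61 (SE 0.37, limma adjusted p = 0.0323), and the glycoprotein Cd52 was higher by 1.74. Ptprc passed in 9 and Cd52 in 7 of the 16 fits without 1 tumour, and the list count ran from 10 to 19, over 1.5 times lower without wild type tumours 2, 3 or 7 or deficient tumours 6, 9 or 14. With quantile scaling 5 of the 37 passed, and Ptprc and Cd52 were not among them. Since this list and the score mark the same cells, its count is a description.

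Transcription factors of the myeloid lineage were higher in 7 of 17 measured genes, against 1.74% of all genes. All 17 had a higher mean (median 0.74). Nr1h3, the liver X receptor alpha that controls cholesterol export, ranged from 5.58 to 6.29 (median 5.80) against 4.85 to 5.41 (median 5.06), a difference of 0.74 (SE 0.093, limma adjusted p = 0.00226). Irf8, needed for monocyte development, was higher by 1.02, Tfec, a relative of Mitf found in macrophages, by 0.99, Cebpa by 0.88, Ikzf1 by 1.34 and Spic, a PU.1 relative of red pulp macrophages, by 1.06. Spi1 itself ranged from 5.07 to 6.41 (median 5.31) against 4.60 to 5.05 (median 4.92). Its groups did not overlap, yet the difference of 0.54 (SE 0.16) did not pass (limma adjusted p = 0.0849). With quantile scaling 0 of the 17 passed in limma (15 with an unadjusted p under 0.05), and Nr1h3 had an adjusted p of 0.097.

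The ligands and receptors of macrophage growth gave few calls, where 1.74% of all genes were called higher. Of 10 genes measured, 1 passed, Csf2rb, the shared receptor chain for GM-CSF, interleukin 3 and interleukin 5, at 6.47 to 8.07 (median 6.95) against 5.64 to 6.74 (median 6.01), a difference of 0.99 (limma adjusted p = 0.0214) that was not called without deficient tumour 9. Without deficient tumour 12 the list count was 2. Csf1 ranged from 5.79 to 7.21 (median 6.0) against 5.07 to 5.82 (median 5.54). Its groups overlapped only slightly, and the difference of 0.60 (SE 0.17) did not pass (limma adjusted p = 0.0833). Il34 was at 3.45 to 4.13 against 3.61 to 4.26, a difference of 0.060 (SE 0.097) whose 95% interval holds 0. The sign of Il34 turned after centring each array on its median (-0.0076), after quantile scaling (-0.0179) and within the higher title series (-0.026).

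Lysosomal and phagocyte oxidase genes were higher as well. Of 28 genes 18 passed, against 1.74% of all genes, and all 28 had a higher mean (median 0.58). In 11 all macrophage-rich values lay above the macrophage-poor ones, against 0.858% of all genes. Lgmn, the asparagine-specific endopeptidase legumain, ranged from 9.08 to 9.59 (median 9.26) against 8.46 to 8.71 (median 8.65), a difference of 0.63 (SE 0.072, limma adjusted p = 0.000915). Cathepsin B (Ctsb) was at 11.11 to 11.85 (median 11.46) against 10.48 to 11.07 (median 10.82), a difference of 0.68. Ctss, cathepsin S, which trims the invariant chain, was higher by 0.99 and Ctsh by 1.36. Lamp1, a glycoprotein of the lysosomal membrane in all cells, was higher by 0.35, and the oxidase subunits Ncf4 and Cyba by 1.21 and 0.94. Without deficient tumour 9 the list count was 11, the lowest of the fits without 1 tumour, and with quantile scaling it was 9.

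Lipid handling genes were higher in 5 of 20 measured genes (median 0.61), against 1.74% of all genes. Lpl, lipoprotein lipase, ranged from 10.19 to 11.67 (median 10.56) against 9.10 to 10.17 (median 9.64) with no overlap, a difference of 1.09 (SE 0.20, limma adjusted p = 0.0109). Plin2, a coat protein of lipid droplets, was higher by 0.74, the apolipoprotein Apoc1 by 1.23, and the cholesterol exporter Abca1 by 0.62. Abca1 lost its call without deficient tumour 9, where 3 of the list passed, and without wild type tumour 5 the count was 8. With quantile scaling it was 3, and with genotype as a covariate 8. Lpl and Plin2 are also expressed in fat, whose markers are given below.

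Receptors and sensors of phagocytes followed. Among Fc receptor and ITAM signalling genes 11 of 25 were higher (median 0.89), against 1.74% of all genes. Fcgr3, a low-affinity receptor for IgG, ranged from 7.91 to 9.04 (median 8.33) against 7.01 to 7.72 (median 7.57), a difference of 0.89. The inhibitory receptor Cd300a was higher by 1.15, the lipid phosphatase Inpp5d (SHIP1) by 0.81 and Sirpa, the macrophage receptor for Cd47, by 0.73. Cd47, the "do not eat me" ligand, ranged from 8.56 to 9.91 (median 8.70) against 7.96 to 8.63 (median 8.28), a difference of 0.61 (SE 0.16) that did not pass (limma adjusted p = 0.0561). Toll-like receptor and inflammasome genes were higher in 11 of 29 (median 0.47), among them Tlr13 by 0.73 and Tlr7 by 0.58, sensors of bacterial and single-stranded RNA, Il18 by 1.09, Casp1, which activates it, by 1.11, and Irak3, an inhibitor of Toll-like receptor signalling, by 0.90. Tlr7 was not called without deficient tumour 9, nor Irak3 without wild type tumours 2 or 7. The Fc receptor count was 6 to 12 and the Toll-like receptor count 3 to 12 in the fits without 1 tumour. The Fc receptor count was over 1.5 times lower without wild type tumours 2, 3 or 7 or deficient tumours 6, 9, 11 or 14, and the Toll-like receptor count without these or deficient tumours 10 or 13. With quantile scaling 2 of the 25 Fc receptor genes and 3 of the 29 Toll-like receptor genes passed, and with the mean of probe sets 5 of the latter.

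Complement genes were higher in 4 of 21 (median 0.18), against 1.74% of all genes. C1qc, the chain of C1q that the score left out, ranged from 8.90 to 9.83 (median 9.03) against 7.59 to 8.27 (median 8.10), a difference of 1.09 (SE 0.12, limma adjusted p = 0.000915). Cfp, properdin, which stabilises the alternative pathway convertase, was higher by 0.999 and the anaphylatoxin receptor C3ar1 by 0.94. C1ra, a protease of the C1 complex, was higher by 0.93 (limma adjusted p = 0.0495) and passed in 3 of the 16 fits without 1 tumour. With the mean of probe sets 7 of the list passed.

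Of 28 chemokines 4 were higher (median 0.38), against 1.74% of all genes. Cxcl16, a membrane-bound chemokine and scavenger receptor, ranged from 7.08 to 7.66 (median 7.18) against 6.23 to 6.81 (median 6.67), a difference of 0.63 (SE 0.095, limma adjusted p = 0.00495). Ccl3, which attracts monocytes and T cells, was higher by 0.98, Cxcl14 by 1.34 and Ccl6 by 1.27, and the last of these passed in 4 and Cxcl14 in 6 of the 16 fits without 1 tumour. The chemokine count was 2 to 6 in these fits, and over 1.5 times lower without wild type tumours 2, 3 or 7 or deficient tumours 6, 9, 10, 11 or 14. With quantile scaling it was 2. Of 19 chemokine receptors 0 passed in limma (3 with an unadjusted p under 0.05), and their median of 0.0076 was -0.0142 with quantile scaling. The lowest p among them was that of Cxcr4, the receptor for Cxcl12, at 5.81 to 6.71 against 5.25 to 6.56, a difference of 0.40 (limma adjusted p = 0.284).

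Genes linked to alternative activation, a wound-healing state of macrophages, gave 0 calls of 22 in limma (6 with an unadjusted p under 0.05), and 17 had a higher mean (median 0.32). Tgfbi, a matrix protein made by macrophages, ranged from 7.24 to 10.51 (median 8.07) against 6.20 to 8.55 (median 6.62), a difference of 1.49 (SE 0.40, limma adjusted p = 0.0667). Il10ra, a chain of the interleukin 10 receptor, differed by 0.88 (limma adjusted p = 0.107). Arg1, the arginase used as a marker of that state, differed by 0.35 (limma adjusted p = 0.724). The count is of this list only, and the mannose receptor Mrc1, higher in macrophage-rich tumours, is given above with the surface and identity genes.

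**Figure D2:**
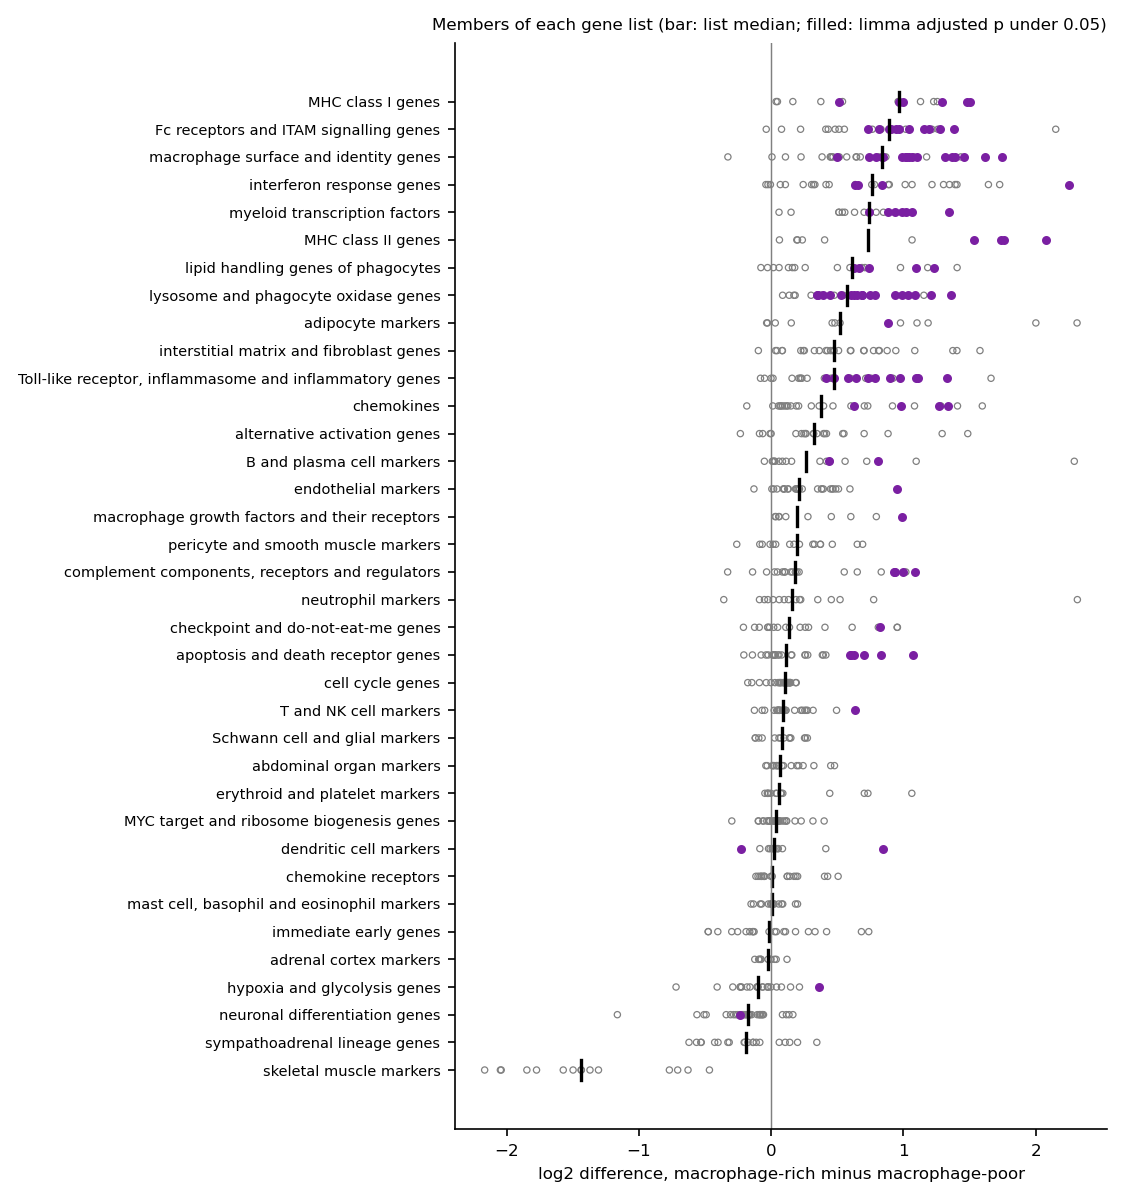
Log2 difference of macrophage-rich minus macrophage-poor tumours for each member (points) of 36 gene lists, ordered by the list median (black bars). Filled points passed a limma adjusted p of 0.05, and the lists run from MHC class I (median 0.96) to skeletal muscle markers (median -1.44).

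Interferon response genes were higher in 4 of 29, against 1.74% of all genes, while 26 had a higher mean (median 0.76). Iigp1, an interferon-induced GTPase that attacks vacuoles of pathogens, ranged from 5.30 to 9.80 (median 6.38) against 3.68 to 6.24 (median 4.36), a difference of 2.25 (SE 0.53, 4.75-fold, limma adjusted p = 0.0364). It passed in 5 of the 16 fits without 1 tumour. Gbp2b, a guanylate-binding GTPase outside that list, ranged from 4.60 to 8.59 (median 5.40) against 3.63 to 4.32 (median 3.88) with no overlap, a difference of 1.81 (SE 0.41), and was not called without wild type tumours 3 or 7 or deficient tumours 6 or 9. Bst2, the antiviral tether, was higher by 0.66, Oas1a, an RNA sensor, by 0.63 and Ifit1 by 0.83. Oas1a was not called without wild type tumours 2 or 3, and Ifit1 passed in 8 of the 16 fits. The list mean was 6.55 in wild type tumour 5 and 6.07 in wild type tumour 1, against 4.99 to 5.53 in the other macrophage-rich and 4.53 to 4.92 in the macrophage-poor tumours. Without these 2 wild type tumours, a choice made after the data were seen, 9 of the 29 genes passed and the median was 0.54. The count was 1 without wild type tumour 2 or 3, 2 without deficient tumour 6, 9, 10 or 13, 11 without deficient tumour 1 and 10 when wild type tumour 5 was left out. It was 2 with centring or quantile scaling and 12 with genotype as a covariate.

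Checkpoint genes gave 1 call of 19 (median 0.14), the costimulator Cd86, at 5.31 to 6.77 (median 5.56) against 4.70 to 5.06 (median 4.91), a difference of 0.82 (SE 0.15, limma adjusted p = 0.0113). Vsir, the inhibitory ligand VISTA, differed by 0.81 (limma adjusted p = 0.0646) and Cd200r1, an inhibitory receptor of myeloid cells, by 0.95 (limma adjusted p = 0.0784). Without wild type tumour 1 or deficient tumour 17 the count was over 1.5 times higher, at up to 4. It was 5 with genotype as a covariate, and with quantile scaling 0 passed in limma (5 with an unadjusted p under 0.05). Of all genes, 1.74% were called higher in the main fit.

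The genotype of the tumour was set against the macrophage groups in an interaction model, added after the data were seen. Of 18187 genes, 8 passed (limma adjusted p from 0.0181 to 0.0474) and 983 had an unadjusted p under 0.05. With no interaction in any gene, a share of about 0.05 of all genes would be under that cut. These 8 were Calhm6, Ms4a4b, Psmb9, Cd274, Fcgr1, Ifi44l, Rtp4 and Hcar2, and in all of them the difference between macrophage-rich and macrophage-poor tumours was smaller in deficient than in wild type tumours. Cd274, which encodes the checkpoint ligand PD-L1, was at 5.98 and 6.93 in macrophage-rich wild type tumours 1 and 5, against 3.91 to 4.34 in wild type macrophage-poor, 4.39 to 4.88 in deficient macrophage-rich and 3.92 to 4.66 in deficient macrophage-poor tumours. Psmb9, a subunit of the immunoproteasome, was at 7.39 and 8.35, against 5.02 to 5.36, 5.53 to 6.24 and 5.01 to 5.42. The macrophage-rich wild type side held only tumours 1 and 5, which are also the ones of highest interferon list mean. Calls among all genes numbered 0 without wild type tumour 2 (839 with an unadjusted p under 0.05) or wild type tumour 3 (935). Without any one of deficient tumours 1, 6, 10 to 17 or wild type tumour 7 the calls numbered 3 to 5. Of the 8 genes above, 3 or 4 were among them. Without deficient tumour 9 the calls numbered 8, but only 4 of these were among the 8 genes above. The fits without wild type tumour 1 or 5 leave 1 macrophage-rich wild type tumour, which is assumed to vary like the other groups, so their counts are not given.

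**Figure D3:**
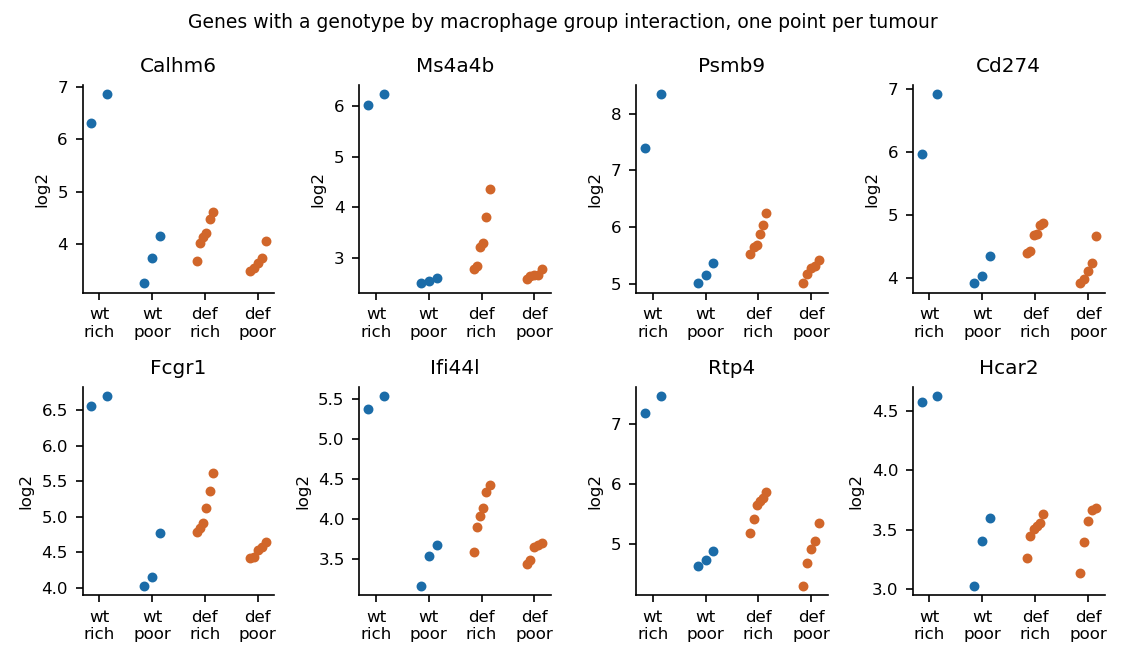
Log2 signal, 1 point per tumour, of the 8 genes that passed the interaction of genotype and macrophage group, with wild type tumours in blue and deficient tumours in orange. The 2 macrophage-rich wild type tumours lie above all others in each panel, for example at 5.98 and 6.93 for Cd274.

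Casp8, the gene targeted in this model, was itself higher in macrophage-rich tumours. It was at 6.91 and 6.31 in macrophage-rich wild type tumours 1 and 5 and at 5.66 to 6.41 (median 5.91) in the 6 macrophage-rich deficient ones. In the macrophage-poor group it was at 5.23, 5.57 and 5.55 in wild type tumours 2, 3 and 7 and at 4.68 to 5.70 (median 5.19) in the 5 deficient ones. Within each genotype the macrophage-rich tumours lay above the macrophage-poor ones, apart from deficient tumour 15, at 5.70. The difference was 0.83 (SE 0.17, 1.78-fold, limma adjusted p = 0.0208), passed in all 16 fits without 1 tumour, and was 1.04 (limma adjusted p = 0.420) and 0.75 (limma adjusted p = 0.105) within the lower and higher title series. Within deficient tumours it was 0.77 (limma adjusted p = 0.0937). With quantile scaling it was 0.76 (limma adjusted p = 0.0598) and not called. Its interaction with genotype was -0.40 (limma p = 0.241, adjusted p = 0.9996). Bone marrow was at 9.01 to 9.62. The array holds 1 probe set for Casp8, and whether it lies inside the deleted part is not known from the labels, so the signal does not check the genotype.

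Casp8 signal and the score were then set side by side over all 24 tumours. Since both come from the same arrays and the relation was chosen with its value known, it is a description with no test. Pearson's r was 0.91 and Spearman's rho 0.85. Without wild type tumour 1 and deficient tumour 9, the 2 tumours farthest from the median score, r was 0.82. It was 0.88 in the 17 deficient tumours, 0.95 in the 7 wild type tumours, and 0.93 and 0.91 in the lower and higher title series. In the 8 middle tumours r was 0.75 and rho 0.52.

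**Figure D4:**
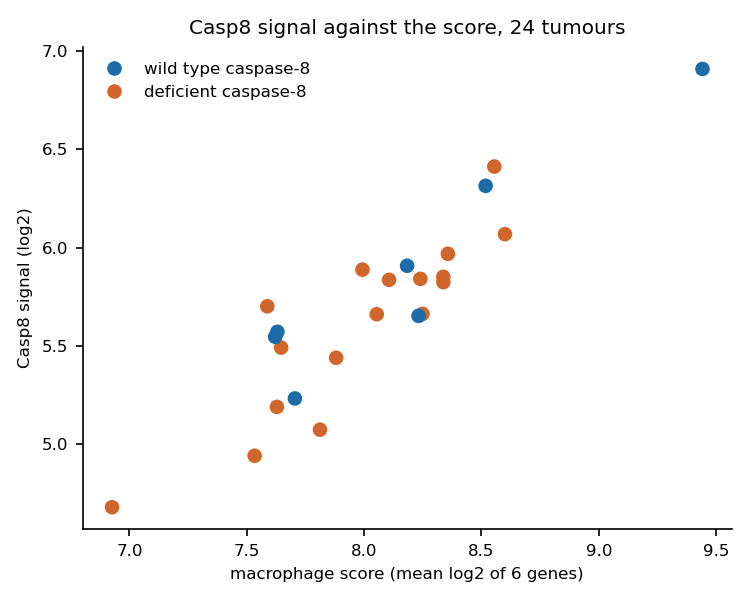
Casp8 log2 signal against the macrophage score for the 24 tumours, coloured by caspase-8 genotype. Signal rises with score in both genotypes (r = 0.95 in 7 wild type and 0.88 in 17 deficient tumours).

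Other death receptor genes were higher with it, 6 of 28 apoptosis genes in all (median 0.12), against 1.74% of all genes. With quantile scaling 2 of the 28 passed, against 0.451% of all genes. Tnfrsf1a, the main receptor for tumour necrosis factor, ranged from 7.19 to 7.95 (median 7.33) against 6.57 to 7.004 (median 6.91) with no overlap, a difference of 0.59 (SE 0.11, limma adjusted p = 0.0113). Ripk3, the necroptosis kinase that caspase-8 restrains, was at 4.43 to 5.44 (median 4.65) against 3.73 to 4.44 (median 4.03), a difference of 0.70. The caspase-8 relative Cflar was higher by 0.60, the ubiquitin ligase Birc3 by 1.07, and Pmaip1, the BH3-only protein Noxa, by 0.62. Every marrow sample was above the median of the macrophage-rich tumours for each of these genes (Birc3 8.97 to 9.56 in marrow), and the part of other blood cells in the differences was not tested.

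Promoters of the genes called higher were searched for letters that myeloid and interferon factors are known to bind. Windows were the 250 bases before the start of each gene in RefSeq (GRCm38.p6), which gave a promoter for 14450 of the 18187 genes tested. The PU.1-type ETS letters GAGGAAGT, on either strand, were in 12 of 241 promoters of genes called higher, 4.98%, against 2.33% of all, and in 0 of 50 of those called lower. The interferon-stimulated letters (TTTC, 2 free bases, TTTC) were in 21 of 241, 8.71%, against 2.63% of all, and in 0 of 50. Both kinds of letters occurred together in the promoters of 9 genes tested, and the counts are a description without a test. Some named genes of large difference that hold such letters are shown 5' to 3' along the gene, with matches in capitals. A match on the other strand reads as the reverse complement. The genes shown are 2 for the PU.1-type letters and 3 for the interferon letters. At most 3 were shown for each kind of letters, and some named genes were left out of the choice. Those shown are examples, and other named genes may hold the letters too. C1qc lies at chr4:136892915-136893164 on the minus strand and Inpp5d at chr1:87620062-87620311 on the plus strand. Gbp2b lies at chr3:142594597-142594846 (plus), Cxcl14 at chr13:56296552-56296801 (minus) and Ctss at chr3:95526536-95526785 (plus).
C1qc: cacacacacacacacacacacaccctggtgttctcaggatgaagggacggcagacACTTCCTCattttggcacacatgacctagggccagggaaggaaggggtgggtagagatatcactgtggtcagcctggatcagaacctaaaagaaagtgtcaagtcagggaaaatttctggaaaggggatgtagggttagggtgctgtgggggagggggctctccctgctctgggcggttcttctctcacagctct
Inpp5d: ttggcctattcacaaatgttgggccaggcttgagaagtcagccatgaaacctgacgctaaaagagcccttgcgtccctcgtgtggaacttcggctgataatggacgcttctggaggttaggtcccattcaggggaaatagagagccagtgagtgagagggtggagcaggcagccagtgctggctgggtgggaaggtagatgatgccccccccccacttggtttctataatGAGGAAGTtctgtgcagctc
Gbp2b: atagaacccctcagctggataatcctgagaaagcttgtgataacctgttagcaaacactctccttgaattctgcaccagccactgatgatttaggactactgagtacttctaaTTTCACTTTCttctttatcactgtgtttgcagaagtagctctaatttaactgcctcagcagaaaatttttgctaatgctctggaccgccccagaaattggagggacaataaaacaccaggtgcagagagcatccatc
Cxcl14: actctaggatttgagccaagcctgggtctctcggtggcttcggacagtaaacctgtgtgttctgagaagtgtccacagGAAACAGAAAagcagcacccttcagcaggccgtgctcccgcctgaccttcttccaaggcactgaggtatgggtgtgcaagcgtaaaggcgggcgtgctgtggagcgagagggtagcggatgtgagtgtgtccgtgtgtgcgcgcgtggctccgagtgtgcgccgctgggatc
Ctss: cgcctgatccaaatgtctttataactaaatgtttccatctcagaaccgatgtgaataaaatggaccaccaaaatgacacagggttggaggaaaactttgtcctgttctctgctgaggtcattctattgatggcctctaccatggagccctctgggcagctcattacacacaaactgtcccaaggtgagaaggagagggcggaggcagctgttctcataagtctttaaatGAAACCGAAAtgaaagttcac
The matches lie 195 (C1qc), 20 (Inpp5d), 137 (Gbp2b), 172 (Cxcl14) and 21 (Ctss) bases before the start. A match is not a bound site, and a promoter without these letters says nothing of the factor.

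The 62 genes lower in macrophage-rich tumours included neuronal and muscle genes. Tmem130, a membrane protein, ranged from 7.17 to 8.64 (median 7.88) in macrophage-rich and from 8.31 to 9.80 (median 9.41) in macrophage-poor tumours, a difference of -1.28 (SE 0.25, limma adjusted p = 0.0149) that passed in all 16 fits without 1 tumour. Syt16, of the synaptotagmin family, was lower by 0.996, Nol4 by 0.71, Jakmip3 by 0.66, the kinases Cdkl2 and Tnik by 0.95 and 0.62, the ubiquitin ligase Trim2 by 0.58 and the neuronal vesicle protein Nrsn2 by 0.58. Of these Jakmip3 and Nrsn2 passed in all 16 fits, Syt16 in 9, Nol4 in 10, Cdkl2 in 5 and Trim2 in 2, and Tnik was not called without wild type tumour 2 or deficient tumours 6 or 9. The scaffold Ank3 was lower by 0.42 (limma adjusted p = 0.0191) and passed in all 16. Among 32 neuronal differentiation genes 28 had a lower mean (median -0.18), and 1 passed, the axonal motor Kif5c, at 10.94 to 11.07 (median 11.02) against 11.07 to 11.40 (median 11.26), a difference of -0.23 (limma adjusted p = 0.0321) that passed in 7 of the 16 fits. With quantile scaling none of the genes named in this paragraph passed in limma, Tmem130 being at -0.97 (adjusted p = 0.236), and 0 of the neuronal list (8 with an unadjusted p under 0.05). The synaptic genes Sv2a and Syn1 differed by -0.49 and -0.31 (limma adjusted p = 0.0835 and 0.137).

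The other 4 genes of the 12 lowest belong to striated muscle. Synpo2l, a Z-disc protein, ranged from 3.53 to 4.20 (median 3.75) against 4.34 to 5.63 (median 4.69) with no overlap, a difference of -1.01 (SE 0.17, limma adjusted p = 0.0104). The calcium release channel Ryr1 was lower by 1.05, the thin filament cap Tmod4 by 0.76 and myopalladin (Mypn) by 0.57. Synpo2l and Mypn passed in all 16 fits without 1 tumour, Tmod4 in 6, and Ryr1 was not called without wild type tumours 2 or 3 or deficient tumours 9 or 13. With quantile scaling Mypn alone of these 4 passed, and Synpo2l was at -0.73 (limma adjusted p = 0.352). Of the 15 skeletal muscle markers all had a lower mean in macrophage-rich tumours (median -1.44), and limma called 0 (10 with an unadjusted p under 0.05). The list mean was 8.55 in deficient tumour 11, 7.65 in wild type tumour 3 and 6.59 in wild type tumour 7, all macrophage-poor, 4.78 in deficient tumour 15 and 4.49 in deficient tumour 13, and between 3.87 and 4.25 in the other 19 tumours. Acta1, skeletal actin and the defining marker of that list, reached 11.48 in the macrophage-poor group and ranged from 4.97 to 5.52 in the macrophage-rich one. Without the 3 macrophage-poor tumours of muscle list mean over 6, a choice made after the data were seen, the list median was -0.12, 4 of the 15 had a higher mean, and the fit called 65 genes higher and 47 lower. In that fit Synpo2l (-0.82) and Ryr1 (-0.78) still passed, and Tmod4 (-0.54) and Mypn (-0.59) did not. The calls of MHC class I and II genes were also lost there (0 of 15 and 0 of 10), with medians of 0.94 and 0.67. The Toll-like receptor list then gave 0 calls, myeloid transcription factors 2, Fc receptor genes 3, surface genes 6 and lysosomal genes 7, with medians of 0.48, 0.80, 0.92, 0.85 and 0.57, and Casp8 was at 0.92 (limma adjusted p = 0.0613).

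**Figure D5:**
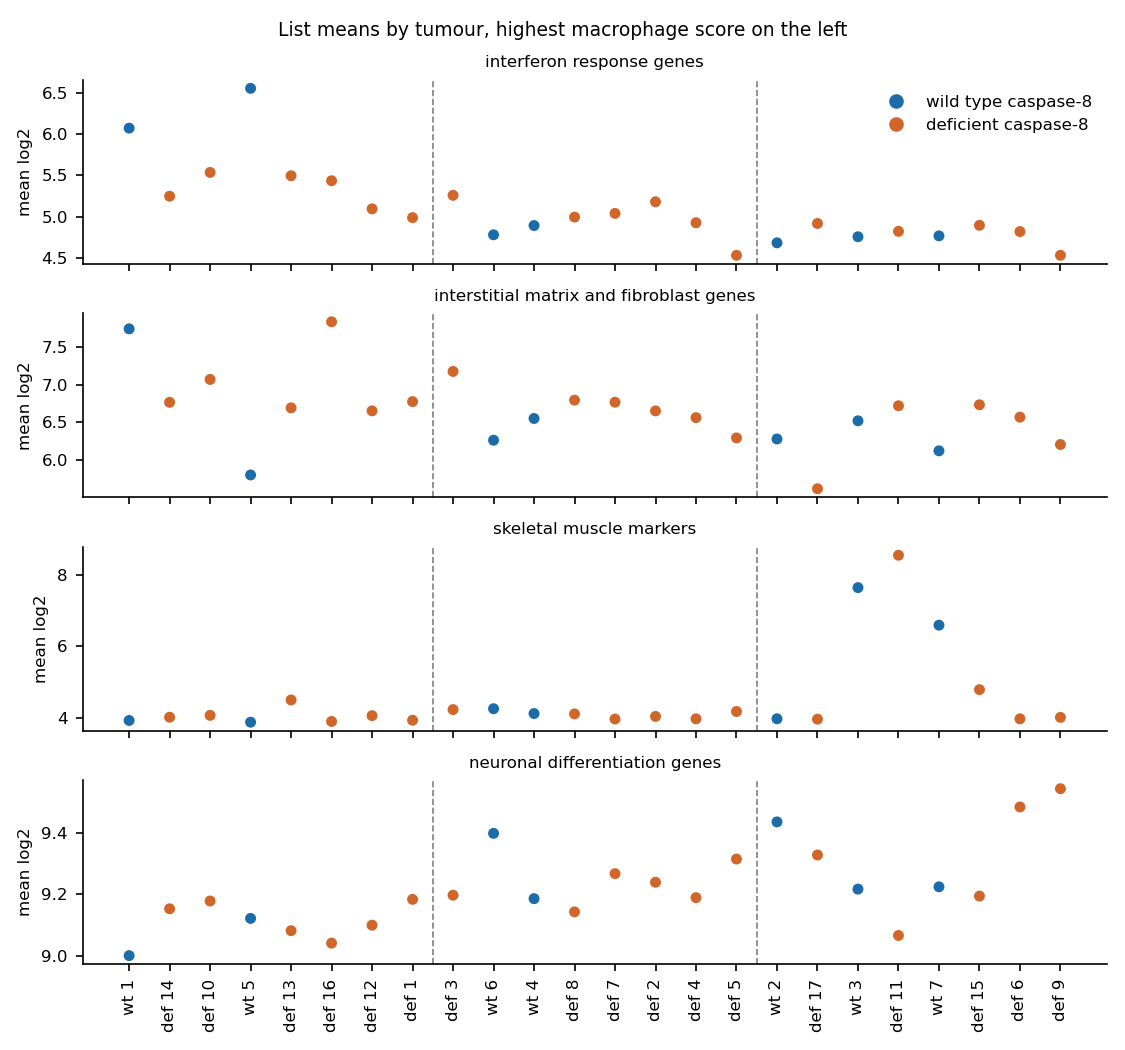
Mean log2 signal of 4 gene lists in each tumour, in rank order of the macrophage score, coloured by caspase-8 genotype. Interferon response genes are highest in wild type tumours 5 (6.55) and 1 (6.07), and skeletal muscle markers are high in 3 macrophage-poor tumours, at 6.59 to 8.55.

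Genes of the tumour cell lineage did not pass. Of 20 sympathoadrenal genes 15 had a lower mean in macrophage-rich tumours (median -0.19), and limma called 0 (6 with an unadjusted p under 0.05). The list mean was 8.83 to 9.13 in macrophage-rich and 9.12 to 9.47 in macrophage-poor tumours, so that the groups overlapped in 1 tumour each, deficient tumour 13 and deficient tumour 11. Phox2a, a homeobox factor of the lineage, differed by -0.53 (limma adjusted p = 0.149) and the monoamine transporters Slc18a2 and Slc18a1 by -0.62 and -0.57 (limma adjusted p = 0.178 and 0.135). Th, tyrosine hydroxylase, was at 9.45 to 11.67 (median 10.66) against 10.38 to 11.87 (median 11.12), a difference of -0.53 (limma adjusted p = 0.418), and Dbh, dopamine beta-hydroxylase, differed by -0.43, which was 0.081 within the higher title series. Mouse Mycn was at 7.27 to 7.70 against 7.36 to 7.86, a difference of -0.16 (SE 0.083, limma adjusted p = 0.386). Cell cycle genes (29 measured, median 0.10) and MYC target genes (30 measured, median 0.039) gave 0 calls in limma (0 and 2 with an unadjusted p under 0.05).

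Markers of other cells showed few calls, where 1.74% of all genes were called higher and 0.341% lower. T and NK cell markers gave 1 of 26, the interleukin 7 receptor Il7r, higher by 0.63 (limma adjusted p = 0.0364), while the defining T cell gene Cd3e was at 4.84 ± 0.08 (SD, n = 8) against 4.73 ± 0.10 (SD, n = 8). Il7r passed in 9 of the 16 fits without 1 tumour. The T and NK list mean was highest in wild type tumour 5, at 4.18, and 3.57 to 3.93 in the others. B cell markers gave 2 of 18, the adaptor Blnk, higher by 0.80, and Cd22 by 0.44, which passed in 3 of the 16 fits, and Jchain of plasma cells differed by 2.29 (limma adjusted p = 0.0602). Dendritic cell markers gave Cd83, higher by 0.85, and Fscn1, an actin-bundling protein at 12.14 to 12.65 in these tumours and at most 3.93 in marrow, lower by 0.23. Neutrophil markers gave 0 of 16 in limma (5 with an unadjusted p under 0.05), and Fpr2, a formyl peptide receptor, ranged from 5.57 to 10.78 against 3.90 to 7.86 (difference 2.31, limma adjusted p = 0.0710). With quantile scaling the T and NK, B cell and dendritic cell lists gave 0 calls in limma (4, 7 and 3 with an unadjusted p under 0.05). Mast cell, erythroid, Schwann cell, adrenal cortex and abdominal organ lists gave 0 calls each in limma (1, 1, 1, 0 and 2 with an unadjusted p under 0.05).

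Markers of stroma and fat had mostly higher means and gave few calls, where 1.74% of all genes were called higher. Interstitial matrix genes had a higher mean in 28 of 29 (median 0.48), with 0 called in limma (10 with an unadjusted p under 0.05), and Dcn, the proteoglycan decorin, ranged from 5.90 to 10.01 (median 8.17) against 5.67 to 7.35 (median 6.45), a difference of 1.58 (SE 0.53, limma adjusted p = 0.140). The list mean was 7.74 in wild type tumour 1 and 7.83 in deficient tumour 16 but 5.80 in wild type tumour 5, and without that last tumour the list median was 0.77. Endothelial markers gave 1 of 26 (median 0.21), the angiopoietin receptor Tek, higher by 0.95 (limma adjusted p = 0.0482). Pericyte markers gave 0 of 16 in limma (0 with an unadjusted p under 0.05, median 0.19). Wild type tumour 5 had the lowest mean of all tumours in both lists, at 5.15 and 5.62. Without wild type tumours 1 and 5, a choice made after the data were seen, the medians were 0.44 and 0.39. In that fit 3 of the 26 and 1 of the 16 passed in limma (16 and 10 with an unadjusted p under 0.05). Tek was called in 3 of the 16 fits without 1 tumour, and with centring or quantile scaling 0 of the endothelial list passed in limma (2 with an unadjusted p under 0.05 in the latter). Adipocyte markers gave 1 of 13, Cebpa, which myeloid cells also express, and Adipoq, the adipokine that defines the list, was at 7.10 ± 1.81 (SD, n = 8) against 5.10 ± 1.54 (SD, n = 8), a difference of 2.0 (limma adjusted p = 0.198). Without wild type tumour 5, 6 of the 13 passed, and the count was over 1.5 times higher also without deficient tumour 16. With quantile scaling 0 passed in limma (7 with an unadjusted p under 0.05). Adipocyte list means ran from 4.93 to 6.93 and from 4.88 to 5.80. The part of fat in the differences of Lpl and Plin2 was not tested.

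The genes whose signal followed the score most closely over the 24 tumours are given as a description, since score and signal come from the same arrays. They were C1qc (Pearson r = 0.95), Lgals3bp (0.95), a secreted glycoprotein, Lgmn (0.95), Laptm5 (0.93), a lysosomal protein of blood cells, Cfp (0.93), Fcgrt (0.93), the neonatal Fc receptor, Smpdl3a (0.93), a lysosomal phosphodiesterase, and Clec4n (0.92). At the other end stood Vangl2 (-0.79), a planar polarity protein, Stox2 (-0.76), Phlpp2 (-0.76), an Akt phosphatase, Kif5c (-0.75) and Ank3 (-0.74). Mgst1, a glutathione transferase in membranes, had r = 0.81 and the smallest SE relative to its size among the 12 largest differences, at 8.28 to 9.69 (median 8.92) against 6.88 to 8.08 (median 7.39), a difference of 1.46 (SE 0.22, limma adjusted p = 0.00495).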

How the data were processed

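RNA of 24 tumours and 5 bone marrow samples was hybridised to a mouse 3' array after two-cycle labelling from 100 ng, per the labels' protocols. The deposited values are log2 signals that the authors made with RMA in Partek 6.6, per the submitters' processing notes. Low signals compress differences, and the number of arrays limits the precision. The probe set of highest mean stood for each of 18193 genes (platform symbols, updated to GRCm38.p6 names), and the 6 scoring genes were left out of tests. The macrophage-rich minus macrophage-poor difference of each gene was estimated by limma (version 3.58.1, R 4.3.3) with moderated two-sided tests and called at a Benjamini-Hochberg adjusted p under 0.05, a script that was tested on simulated data, and single values with exact permutation tests. Intervals are at 95%.

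The tumour groups, gene lists and tests were chosen with earlier results of these data known. Named genes were the 12 of largest difference in each direction among those called, 4 of smallest p per list described, the 8 of highest and 5 of lowest correlation with the score, and Casp8, Mycn, Th, Dbh, Csf1, Il34, Spi1 and Cd47. Others, such as further called list members, defining markers and interaction genes, were chosen after their values were seen. Xist, Y-linked genes and unnamed predicted loci were passed over. Alternatives took the mean of probe sets, left out genes of mean log2 under 5, and changed the scaling, covariates, variance model, array weights, group size and the samples included. Figures were drawn with matplotlib 3.10.9.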

Additional observations from a re-analysis of the deposited data

Results flagged for a closer look

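Single tumours stood apart from the other 7 of their group, by Dixon's 95% criterion (gap over range above 0.526), in 51 of 274 groups of values tested. Chance flags about 1 in 20 random groups, but that rate is no yardstick here: the groups are the ends of a ranking by the score, so values that follow the score have their extremes at these ends by construction. Lists and genes also follow each other's signal, so the 274 are not independent. The values are given as a description. Wild type tumour 1 accounted for 27 of them. Among log2 list means it stood apart in myeloid transcription factors 6.96, macrophage surface and identity genes 7.51, Fc receptors and ITAM signalling genes 7.92, Toll-like receptor, inflammasome and inflammatory genes 5.66, lysosome and phagocyte oxidase genes 9.41, checkpoint and do-not-eat-me genes 5.59, sympathoadrenal lineage genes 8.83 and apoptosis and death receptor genes 6.69. Among single genes its log2 signals were Ptprc 11.10, Nr1h3 6.29, Mpeg1 11.12, Cfp 8.37, Irak3 5.29, Il10ra 6.43, Tgfb1 4.85, Cd86 6.77, Cd47 9.91, Cd200r1 7.13, Blnk 6.84, Cd22 6.75, Ebf1 6.31, Birc3 7.52, Laptm5 10.52, Fcgrt 8.40, Smpdl3a 8.75, Dbh 6.49 and Spi1 6.41. It was the lowest of its group in sympathoadrenal genes and in Dbh and the highest in the rest.

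Deficient tumour 9 stood apart as the lowest macrophage-poor tumour in 12 groups. Its log2 list means were myeloid transcription factors 4.96, macrophage surface and identity genes 5.39, lipid handling genes of phagocytes 6.53 and MHC class I genes 6.79, and its gene signals H2-D1 8.20, H2-K1 7.999, Tfec 2.80, Clec4n 6.63, C1qc 7.59, Cxcl16 6.23, Cflar 5.23 and Fcgrt 5.40. Deficient tumour 17, also macrophage-poor, stood apart at Iigp1 6.24, H2-Aa 5.10, H2-Ab1 4.85, Tgfbi 8.55 and Il10ra 3.94, lowest in both MHC class II genes and highest in the other genes. Wild type tumour 5 was highest in T and NK cell markers 4.18 and Gbp2b 8.59, deficient tumour 13 in skeletal muscle markers 4.49, and deficient tumour 11 in Ryr1 6.89 and Il34 4.26. Deficient tumour 10 stood apart at Csf1 7.21 and Scg3 9.96, the second as the lowest value.

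The difference between macrophage-rich and macrophage-poor tumours itself differed between genotypes in 8 genes (interaction in limma, adjusted p from 0.0181 to 0.0474, a test added after the data were seen). The deficient minus the wild type difference was -2.38 for Calhm6, -2.87 for Ms4a4b, -2.09 for Psmb9, -1.89 for Cd274, -1.73 for Fcgr1, -1.52 for Ifi44l, -1.83 for Rtp4 and -1.26 for Hcar2 on the log2 scale. The macrophage-rich wild type side held 2 tumours, and 0 genes passed without wild type tumour 2 or 3 (839 and 935 with an unadjusted p under 0.05).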

How the results depend on the processing

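As a share of the 18187 genes, the 1.74% and 0.341% called higher and lower became 1.21% and 0.814% with median centring, 0.451% and 0.055% with quantile scaling over the 24 tumours, 0.643% and 0.066% with 6 tumours against 6, 0.627% and 0.055% with 12 against 12, and 5.11% and 1.48% as a slope on the score over 24 tumours. The shares were 0.423% and 0.011% in deficient tumours, 0.495% and 0.011% in the higher title series, 0% and 0% in the lower one (2047 genes with an unadjusted p under 0.05 in limma) and 0% and 0% as a slope over the 8 middle tumours (609 genes). Without the 3 macrophage-poor tumours high in muscle genes, an alternative chosen after seeing the data, they were 0.357% and 0.258%. Leaving out 1 tumour gave 0.896% to 2.34% and 0.0935% to 0.649%. The other settings, including covariates for genotype, title series or RNA quality, stayed within 1.5 times of both shares. The cause of these changes was not tested. Some of the settings held fewer tumours than the main fit, and the part of that was not tested either. The score difference by genotype ran from -0.29 to 0.0091 without 1 tumour, and that by title series from -0.066 to 0.15. The latter was also 0.0068 with probe set means, 0.026 with median centring and 0.042 within deficient tumours. The RNA quality difference was 0.058 with 6 against 6, and the count of deficient tumours differed by -1 with 12 against 12. Slopes over the 8 middle tumours had the opposite sign for Tmem130 0.43, Synpo2l 0.26, Syt16 0.92, Cdkl2 0.83, Tmod4 0.53, Tnik 0.38, Trim2 0.62, Nrsn2 1.73, Mypn 0.39, Csf1 -1.34, C3ar1 -0.95, Irak3 -0.15, Plin2 -0.20, Tgfbi -1.29, Il10ra -0.0329, Il7r -1.17, Ncr1 -0.27, Lat -0.20, Blnk -0.0042, Fbln2 -1.49, Mb 1.42, Acta1 1.15, Mylpf 1.21, Pvalb 0.10, Slc18a1 0.59, Kif5c 0.084, Sv2a 0.32, Scg3 0.33, Cflar -0.0528, Dbh 1.88 and Il34 -0.0983 (log2 per 1.01 score units, the difference between the group means). Dbh was 0.081 in the higher title series. Il34 was -0.0076 with centring, -0.0179 with quantile scaling and -0.026 in the higher series. No paired analysis was possible because the replicate numbers only name samples in accession order. With 8 tumours a group, the 95% interval of a gene's difference had a median half-width of 0.19 on the log2 scale. Smaller differences were mostly not detectable. That interval is not adjusted for the number of genes, and an adjusted p under 0.05 took a larger difference at the same precision.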
